A study of Mus musculus with 116 samples.

Results

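The histone genes of the mouse cell lines C10 and SVEC were examined here as 2 classes, the replication-dependent genes and the variant genes. Members were taken by symbol from the count files, and 78 of the 40202 listed genes met the naming rule. Of these, 64 were replication-dependent, with 6 linker histone H1 genes, 17 H2A genes, 17 H2B genes, 12 H3 genes and 12 H4 genes. The other 14 were variants, with 5 linker variants, 6 H2A variants and 3 H3.3 genes. Testis genes such as H1f6, H2ac1 and H2bc1 were kept in the replication-dependent class.

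Histones are the proteins around which DNA is wrapped, with H2A, H2B, H3 and H4 forming the core and H1 binding the linker. Replication-dependent histone mRNAs are made chiefly in S phase and usually end in a stem-loop instead of a poly(A) tail, a structure bound by SLBP, whereas most variant histone mRNAs are spliced, polyadenylated and made through the cell cycle. A cDNA reaction primed with oligo-dT starts from a poly(A) tail, and the SMART-Seq kits are of this kind. The counts therefore allowed a comparison of how the 2 classes were recovered in such libraries.

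The libraries came from nanoSPLITS, a method that divides the lysed contents of very few cells so that RNA and protein can be measured in separate portions, and only the RNA portion was analysed here. By their labels, C10 cells are alveolar type II epithelial and SVEC cells are endothelial. Both were grown in standard culture without treatment, and the labels give no genotype. An input series of C10 held 8 libraries of 1 cell, 6 pools of 3 cells and 6 pools of 10 cells, and the single-cell set held 48 libraries of each line, of which 46 of C10 and 48 of SVEC had at least 1000 counts and were used. The labels do not say whether libraries came from separate cultures, so p-values measure only the spread between libraries. For pooled cells, more cells that hold an mRNA and more of it in each cell cannot be told apart.

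Total counts ran from 430798 to 15385625 in the 1-cell libraries and from 6889508 to 14778988 in the pools of 3 and 10 cells. They ran from 83188 to 5911755 in C10 single cells and from 5122 to 2831907 in SVEC single cells. The 1-cell library of replicate 1 stood apart, with 538 genes detected, 64.6% of its counts on mitochondrial genes and no histone counts. Defining markers of the labelled cell types were nearly absent: Sftpa1, Sftpb, Sftpc and Sftpd were at 0 in all C10 single cells, and Kdr, Tie1, Vwf and Cldn5 were at 0 in all SVEC single cells. Of 12 alveolar markers 1 was detected in at least 50% of C10 single cells, and of 12 endothelial markers 0 were detected in at least 50% of SVEC single cells.

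The classes were assigned by symbol, and their 3′ ends overlapped in part. The following windows show the stem-loop of genes described below that have it, and of the variant H2ax, with the 16 bases of the stem and loop in capitals, from GENCODE vM21 transcripts on GRCm38, and all lie in the 3′ UTR of 1-exon genes. The build of the deposited counts is not given in the sources used here, so the coordinates are those of the reference.

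H1f2, chr13:23739512-23739527, plus strand: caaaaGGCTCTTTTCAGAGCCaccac
H1f4, chr13:23621782-23621797, minus strand: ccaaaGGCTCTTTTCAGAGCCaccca
H2ac18, chr3:96246032-96246047, plus strand: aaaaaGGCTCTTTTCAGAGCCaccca
H2ac20, chr3:96220418-96220433, minus strand: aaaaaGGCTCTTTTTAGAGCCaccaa
H2ac23, chr13:21810898-21810913, plus strand: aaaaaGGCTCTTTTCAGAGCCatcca
H3c6, chr13:23561903-23561918, minus strand: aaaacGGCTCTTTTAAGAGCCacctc
H4c4, chr13:23581950-23581965, plus strand: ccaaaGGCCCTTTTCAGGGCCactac
H4c6, chr13:23551291-23551306, minus strand: tcaaaGGCCCTTTTCAGGGCCaccca
H2ax, chr9:44335240-44335255, plus strand: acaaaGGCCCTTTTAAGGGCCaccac

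The poly(A) signal is shown for the 3 most abundant variants and for H1f2, which has the stem-loop as well, with the 6 bases AATAAA in capitals. Other members that carry it, such as H2ac11, H2aj, H2az2, H1f0 and Macroh2a1, are not printed. The printed match was followed by 16 bases of the model in H3f3a, 11 in H2az1 and 20 in H1f2. In H3f3b it was followed by 87 bases, and whether any of these matches is used was not tested.

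H3f3a, chr1:180800848-180800853, minus strand: aaaatAATAAAagtac
H3f3b, chr11:116021999-116022004, minus strand: ttacaAATAAActagt
H2az1, chr3:137866802-137866807, plus strand: agctcAATAAAggtca
H1f2, chr13:23740342-23740347, plus strand: cttctAATAAAaagcg

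The motif searched, on the transcript strand, was GG, any 2 bases, CTTTT, any base, AG, any 2 bases and CC. It stood in at least 1 transcript of 41 of the 63 replication-dependent genes with a transcript sequence and of 1 of 12 variants, H2ax, which is known for marking DNA breaks when phosphorylated. It stood in 124 of all 141767 transcripts, or 0.0875%. The form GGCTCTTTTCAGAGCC was shared by 24 genes of the H1, H2A, H2B and H3 families, while the form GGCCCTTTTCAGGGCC was found in 6 genes, all of them H4. Of the 22 replication-dependent genes without the letters, 15 had models that ended within 25 bases of the stop codon, where the loop could not be seen. The other 7, H1f1, H2bc21, H2bc23, H2bc4, H3c13, H3c8 and H4c1, had longer models, and that of H2bc4, often the most abundant gene of the class, ran 742 bases past the stop codon without the letters or AATAAA. The models of H3c13 and H1f1 ended 37 and 48 bases past the stop codon. The printed loops began 21 to 58 bases past it, so a loop might not be seen in these models either. The signal AATAAA stood in the last 100 bases of at least 1 transcript of 12 replication-dependent genes and 10 variants, and 9 replication-dependent genes held both elements. By transcript it stood in 28.4% of all transcripts. That share cannot be set against counts of genes, since some variants have many models: H2az1 has 7, of which 1 holds the signal. A match or its absence describes these models only.

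Variant histones made up most histone counts in every group. Their summed level was 0 to 7899 CPM (counts per 1000000 counts on genes), with a median of 4415, in the 1-cell libraries. The medians were 4337 CPM for 3 cells (3924 to 5314) and 4819 CPM for 10 cells (3667 to 5827). In single cells the median was 4689 CPM in C10 (874 to 10220) and 8213 CPM in SVEC (3384 to 18634). The groups of variant sums overlapped throughout, and 46 of 48 SVEC libraries lay above the C10 single-cell median.

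Replication-dependent genes were counted at lower levels in all groups. In the 1-cell libraries their summed level was 0, 241, 268, 346, 359, 442, 454 and 523 CPM. The 3-cell pools gave 233, 258, 469, 941, 964 and 1081 CPM, and the 10-cell pools gave 587, 589, 907, 932, 1026 and 1076 CPM. All 6 of the 10-cell pools lay above all 8 of the 1-cell libraries, and 3 of the 6 pools of 3 cells did. In C10 single cells the sum ran from 1.75 to 1053 CPM with a median of 88.8, and in SVEC single cells from 0 to 2131 CPM with a median of 161, and the lines overlapped. As a share of all histone counts, the replication-dependent class had a median of 6.32% in 1-cell libraries, 14.1% in 3-cell pools and 17.1% in 10-cell pools, and of 2.29% and 2.15% in C10 and SVEC single cells. The highest share in any library was 21.9%, in a 10-cell pool. In C10 single cells the genes with stem-loop letters gave 79.4% of the mean replication-dependent level and those with AATAAA 13.9%, and in SVEC single cells 38.7% and 10.4%. H2bc4, which has neither element in its model, held 203 of the mean of 359 CPM of the class in SVEC. The plot of summed levels by library shows both classes.

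**Figure D1:**
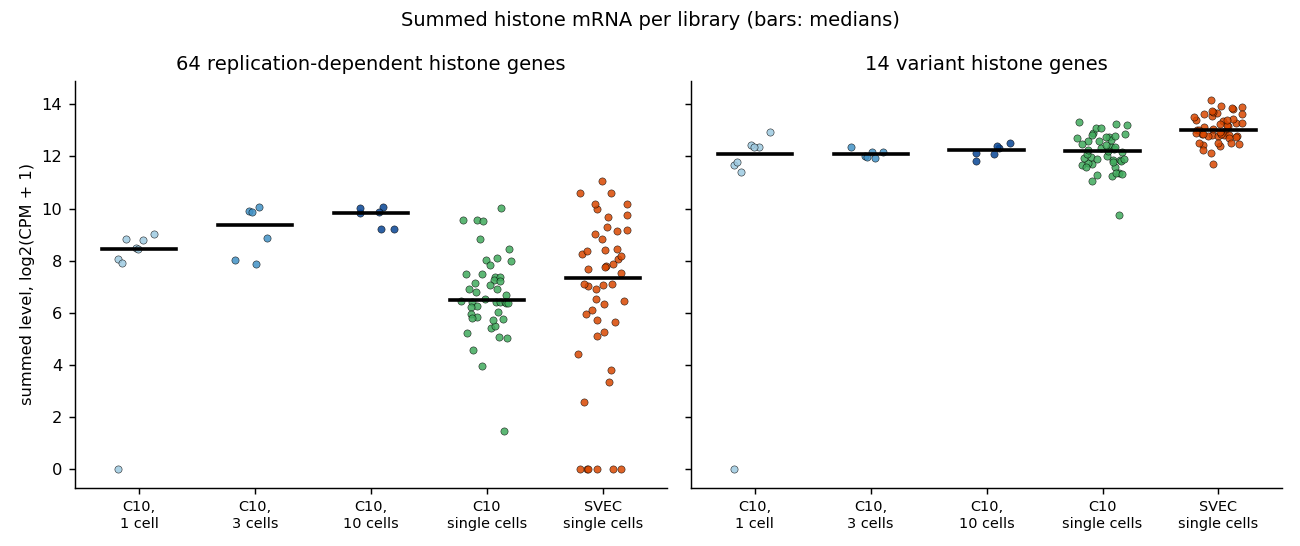
Summed level of the replication-dependent (left) and variant (right) histone genes in each library, as log2(CPM + 1), by library group; each point is 1 library and each bar the group's median. The variant medians correspond to 4337 to 8213 CPM and the replication-dependent medians to 88.8 to 919 CPM, and the points at 0 are 1-cell replicate 1 and, at left, 6 SVEC libraries.

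The number of replication-dependent genes with at least 1 count separated the pools from the 1-cell libraries. It ran from 0 to 28 of 64 (median 23) in 1-cell libraries, from 34 to 46 (median 39) in 3-cell pools and from 45 to 54 (median 49) in 10-cell pools, and the 2 kinds of pool overlapped each other. It ran from 2 to 32 (median 10) in C10 single cells and from 0 to 22 (median 6) in SVEC, where 6 libraries held none. With every library drawn down to 100000 counts the medians were 8.5, 16.5 and 24 across the input series, with ranges of 0 to 12, 8 to 24 and 17 to 25, and 4 in 45 C10 and 3.5 in 42 SVEC single cells. Variant genes detected had medians of 8, 8.5, 9, 8 and 7 in the 5 groups, and of 7.5, 8, 8, 7 and 6 after drawing down. The number of all genes detected moved with these numbers between the input groups, with medians of 7568, 10257.5 and 12986, while total counts overlapped between those groups and the deepest library was a 1-cell one. At 1 depth the ranges of 3-cell and 1-cell libraries overlapped.

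**Figure D2:**
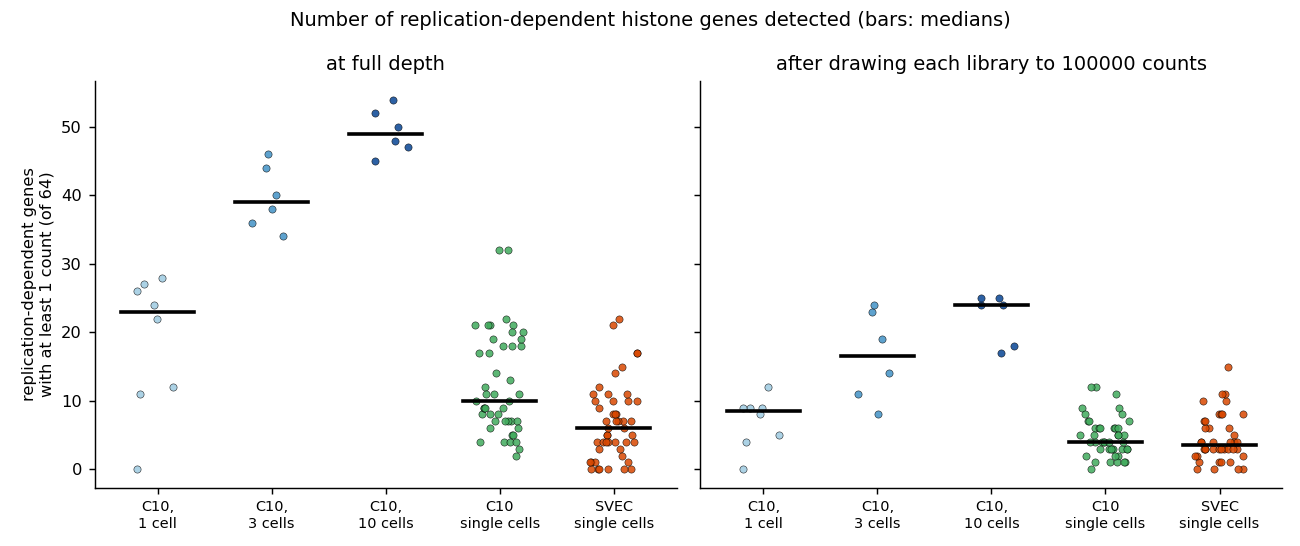
Number of replication-dependent histone genes with at least 1 count in each library, by library group, at full depth (left) and after drawing each library to 100000 counts (right); each point is 1 library and each bar the median. The medians of 23, 39 and 49 genes for 1, 3 and 10 cells become 8.5, 16.5 and 24, and the 10-cell pools lie above all 1-cell libraries in both panels.

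Different 1-cell libraries held different genes. Across the 8 libraries 47 replication-dependent genes were seen at least once, 13 of them in 1 library only and 0 in every library, whereas 32 were seen in every 10-cell pool. H2A and H2B genes were detected in 7 of 8 1-cell libraries and H4 genes in 6, but H3 genes in 2 and H1 genes in 1. In all 3-cell and 10-cell pools every family was detected. In C10 single cells H2A genes were detected in 41 of 46 libraries, H4 in 36, H2B in 30, H3 in 24 and H1 in 21. In SVEC single cells H2A genes were detected in 36 of 48 libraries, H2B in 26, H1 in 21, H4 in 19 and H3 in 9. H2A and H2B genes together carried the largest part of the class, with means of 55.0% and 36.2% of the replication-dependent level in 1-cell libraries and 48.8% and 28.1% in 10-cell pools.

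The individual levels were tested with edgeR's quasi-likelihood test with Benjamini-Hochberg adjustment over all genes, at an adjusted p below 0.05. Against 1 cell, 16 of the 63 members tested were higher in the 10-cell pools and 0 were lower, where 10.6% of all 13645 genes tested were higher and 0.0879% were lower. All 16 were replication-dependent, and 0 of the 9 variants tested passed. They comprised 3 of 4 H1 genes, 1 of 15 H2A genes, 0 of 11 H2B genes, 8 of 12 H3 genes and 4 of 12 H4 genes. The median log2 fold change was 0.88 over the members, or 0.76 with genes at 0 in the 1-cell libraries set to their lower bound, against 0.36 over all genes. It was 1.43 for replication-dependent genes, or 1.05 with those bounds, and -0.27 for variants. Of the 16 genes, 12 were at 0 in all 1-cell libraries, and H2ac13, H3c11, H4c2 and H4c6 were each counted in 1 of them. All 16 therefore passed the filter only through the pools, and such a member had to differ in this direction. The 9 variants tested passed the filter in the 1-cell libraries as well. The split of the calls by class and family thus follows the filter and is no separate support for a difference between them.

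The replication-dependent linker histones, which bind the DNA entering and leaving the nucleosome, were nearly unseen in 1-cell libraries, unlike the linker variant H1f0, counted in 6 of 8. H1f2 was at 0 CPM in all 8 and at 14.2, 17.8, 19.8, 23.6, 24.8 and 47.6 CPM in the 10-cell pools. The groups did not overlap, and H1f2 was at least 21.9-fold higher against a floor of 3 counts per 1-cell library (edgeR quasi-likelihood test, Benjamini-Hochberg adjusted p = 0.0230). H1f4 was also at 0 CPM in all 8 and at 6.5, 10.9, 11.5, 19.5, 29.8 and 34.7 CPM in the pools, at least 16.8-fold higher (adjusted p = 0.0230 by the same test). H1f3 was counted in 3 of 6 pools, at most at 3.40 CPM, with an adjusted p of 0.0265 by the same edgeR test. H1f5 was counted in 1 of 8 1-cell libraries, at 16.1 CPM, and in 5 of 6 pools of 10 cells, at up to 14.5 CPM.

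H2A and H2B genes, whose products form the dimers of the nucleosome, were already high in some 1-cell libraries. H2bc4 was at 0, 0, 0, 0.13, 1.91, 165, 210 and 244 CPM there and at 71.8 to 288 CPM in the 10-cell pools, so the groups overlapped. H2ac23 was at 0, 3.18, 8.86, 14.2, 18.8, 75.1, 79.5 and 173 CPM in the 1-cell libraries and at 31.1 to 148 CPM in the 10-cell pools. H2ac13, the H2A gene that passed, was counted in 1 of 8 1-cell libraries at 0.12 CPM and in 5 of 6 pools at up to 8.73 CPM (edgeR quasi-likelihood test, adjusted p = 0.0230). H2bc4 was the most abundant replication-dependent gene in 3 of the 7 1-cell libraries with any, in 5 of 6 pools of 3 cells and in 4 of 6 pools of 10 cells.

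H3 and H4 genes, whose products form the central tetramer, gave 12 of the 16 calls. H3c6 was at 0 CPM in all 1-cell libraries and at 0, 0.20, 8.66, 10.8, 17.3 and 47.0 CPM in the 10-cell pools, at least 12.5-fold higher (edgeR quasi-likelihood test, adjusted p = 0.0262). The groups met at 0 through 1 pool. H3c13 was at least 6.35-fold higher, H4c14 at least 6.14-fold and H3c4 at least 5.75-fold, each at 0 in all 1-cell libraries. In the 10-cell pools H3c13 was at 0, 1.32, 2.61, 6.48, 6.77 and 25.5 CPM. H4c14 was at 0, 0, 1.92, 4.80, 10.6 and 24.0 CPM there, and H3c4 at 0, 0.52, 1.57, 4.47, 12.4 and 19.7 CPM. These bounds compare means that a few pools carried, and the groups met at 0 for each gene. H4c6 was at 0.065 CPM in 1 of 8 1-cell libraries and at 0.52, 1.69, 2.76, 5.69, 7.34 and 29.1 CPM in the pools, with no overlap. Groups did not overlap for H1f2, H1f4 and H4c6 among the members, and for 2.29% of all genes. H4c4, counted in 3 of 8 1-cell libraries at 4.01, 18.4 and 48.5 CPM and in all 10-cell pools at 4.41 to 59.8 CPM, did not pass.

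Of the 14 variants, 9 were counted in some library of each input group. H3f3b, H3f3a and H2az1 were counted in 19 of 20 input libraries, H1f0 in 18, Macroh2a1 in 17 and Macroh2a2 in 12. H3f3b, a gene for the replacement histone H3.3, had medians of 1831, 1593 and 1487 CPM with 1, 3 and 10 cells, and H3f3a, which encodes the same protein, had medians of 452, 641 and 615 CPM. H2az1, which encodes H2A.Z, a variant found at promoters, had medians of 1098, 1569 and 1664 CPM. H1f0, the linker variant of resting cells, had medians of 179, 118 and 164 CPM. Macroh2a1, whose product carries a macro domain and marks silent chromatin, had medians of 9.62, 91.0 and 88.7 CPM, with ranges of 0 to 91.1, 38.8 to 254 and 52.0 to 133 CPM. These groups overlapped, and 0 of the 9 variants tested passed.

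**Figure D3:**
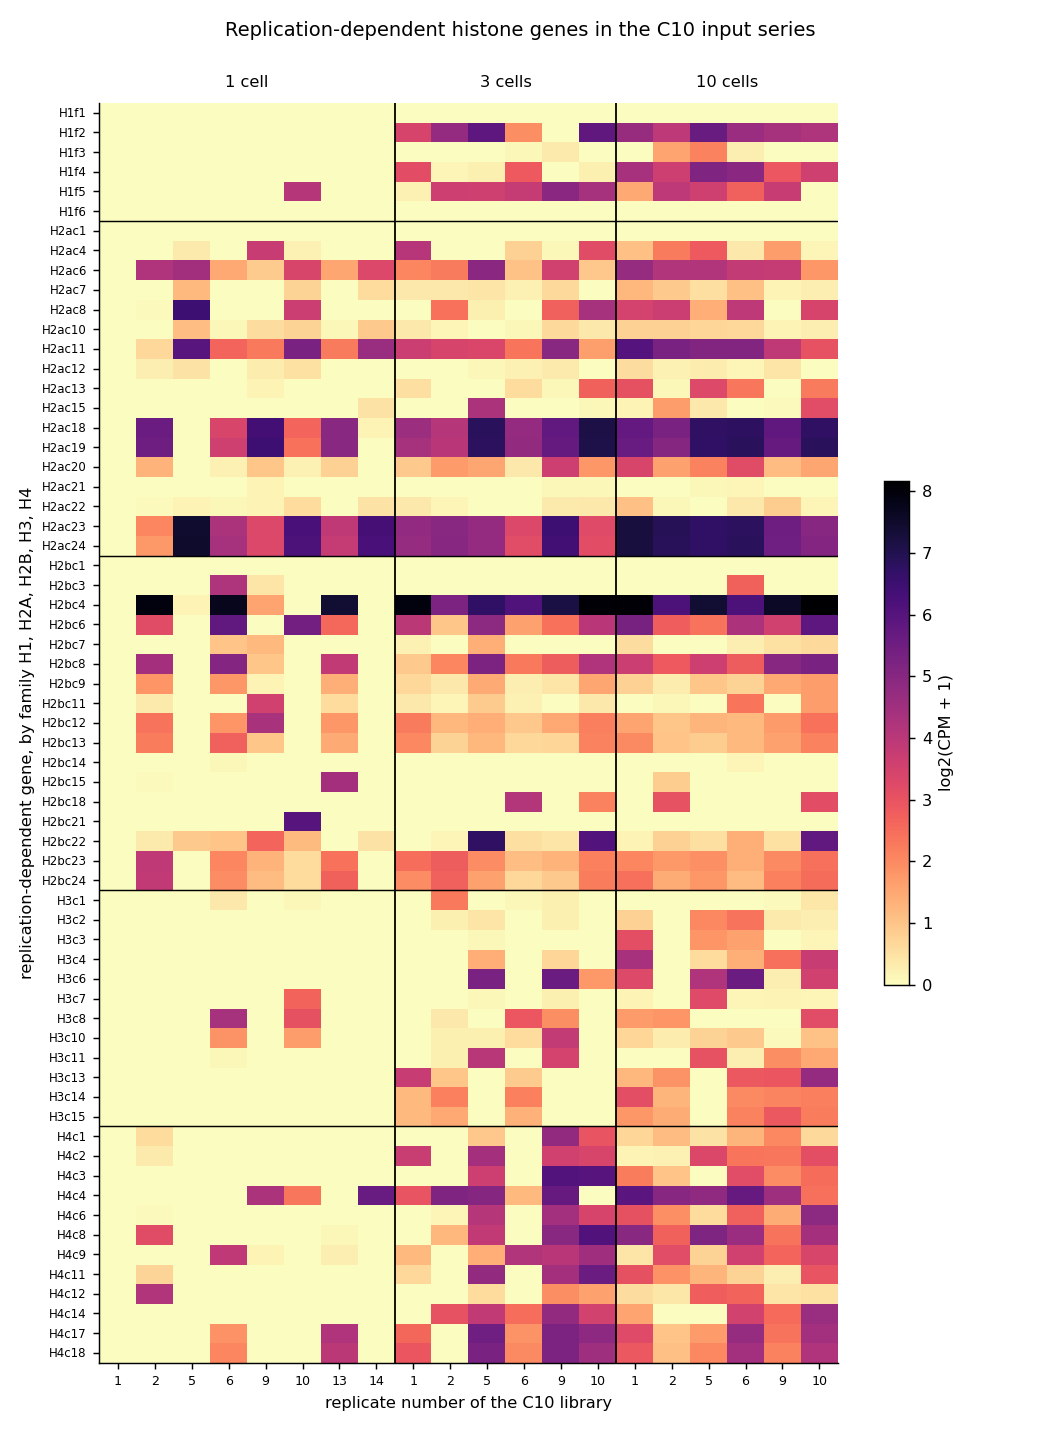
Level of each replication-dependent histone gene (rows, grouped by family) in each library of the C10 input series (columns, by replicate number within 1, 3 and 10 cells), with colour as log2(CPM + 1). The H1 and H3 rows are nearly empty with 1 cell, where H1 genes were detected in 1 and H3 genes in 2 of 8 libraries, and H2bc4, H2ac18, H2ac19, H2ac23 and H2ac24 are the darkest rows.

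The 10-cell calls depended on the 1-cell libraries. With each library of the series left out in turn the count lay between 11 and 19, and it was 11 without 1-cell replicate 1, where H1f3, H3c6 and H4c3 were among the genes lost. The H3c11 call was lost without any 1 of 7 libraries and the H4c2 call without any 1 of 5. Without a filter on low counts 2 members were called, and limma called 15 members, of which 9 were among the 16. With the replicate number as a block 0 members were called.

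Between 3 cells and 1 cell, 14 members were higher and 0 lower, where 6.07% of all genes were higher and 0.278% lower. All 14 were replication-dependent, with H1f2 at least 22.3-fold and H4c3 at least 20.7-fold higher. Of the 14, 8 were at 0 in all 1-cell libraries and the others were counted in 1 of them. These calls too passed the filter only through the pools and had to differ in this direction. H1f2 was at 0, 2.78, 9.72, 25.9, 54.5 and 56.9 CPM in the 3-cell pools, so that 5 of 6 pools lay above all 1-cell libraries. H4c3 was at 0 CPM in 3 pools and at 11.5, 61.9 and 65.7 CPM in the others. The member median was a log2 fold change of 1.21 as fitted and 0.02 with bounds, against 0.12 over all genes. This count rested on single libraries: it was 1 without 1-cell replicate 1, 5, 9 or 14, 3 without replicate 13 and 8 without replicate 2, and limma called 1. Both comparisons with 1 cell used the same 8 libraries.

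Between 10 and 3 cells, 0 of 63 members and 0.0% of all genes passed, while 5 of 63 members and 1346 of 13645 genes had an unadjusted p under 0.05 by edgeR, a smaller share of the members than of all genes. DESeq2 called 254 genes and limma 35, with 0 members in either.

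Among single cells, 25 members could be tested between the lines and 7 passed, where 18.9% of all 9303 genes passed. Of the 7, 3 were higher in C10 and 4 lower, against 14.4% and 4.48% of all genes. The split depended on the setting: 2 of 10 calls were higher with library totals, 1 of 5 with DESeq2 and 5 of 7 with limma. Replication-dependent genes gave 4 of the calls from 17 tested and variants 3 from 8 tested. The member median log2 fold change was -0.02 against 0.35 over all genes, a shift that was 0.00 with library totals in place of TMM factors. On simulated single-cell counts most of edgeR's calls were false, whereas few of limma's were, so limma's calls are given beside them: 5 of the 7 were also called by limma, and H2bc4 and H2bc24 were not. Over all genes limma's calls lay mostly in 1 direction, with 2895 of 3223 higher in C10, against 1337 of 1754 by edgeR.

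The H3.3 genes, which supply H3 outside replication, were lower in C10. H3f3b was at 314 to 5732 CPM (median 2100) in C10 and at 934 to 12586 CPM (median 4884) in SVEC, a log2 fold change of -0.80 (SE 0.17, adjusted p = 1.16e-04 by edgeR's quasi-likelihood test). H3f3a was at 0 to 1152 CPM (median 520) in C10 and at 236 to 2900 CPM (median 1209) in SVEC, with a log2 fold change of -0.87 (SE 0.21, adjusted p = 8.00e-04 by the same test). Both lines overlapped for each gene. Both calls remained under all 9 other settings and with each single library left out.

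H2aj, a replication-independent H2A whose protein resembles canonical H2A, was higher in C10. It was at 12.8 to 436 CPM (median 86.8) in C10, detected in 46 of 46 libraries, and at 0 to 188 CPM (median 13.3) in SVEC, detected in 35 of 48. The log2 fold change was 2.36 (SE 0.44, adjusted p = 1.38e-05 by edgeR's quasi-likelihood test), and the call remained under all 9 other settings. The levels overlapped between the lines.

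Other variants did not pass. H2az1 was at 147 to 3744 CPM (median 1549) in C10 and at 0 to 5383 CPM (median 2110) in SVEC, with a log2 fold change of 0.07 (SE 0.22) that was -0.35 with library totals alone, so that its sign depended on the scaling. H2az2, the second H2A.Z gene, had medians of 121 and 188 CPM and H1f0 medians of 86.1 and 109 CPM. Macroh2a1 was detected in 41 of 46 libraries of C10 and in 26 of 48 of SVEC, with medians of 39.0 and 1.72 CPM and a log2 fold change of 0.77 (SE 0.63). H3f3c, a related gene, had medians of 3.85 and 8.20 CPM. H2ax was at 0 counts in all libraries, as were H1f7, H1f8 and H1f9, and H1f10 was counted in 4 SVEC libraries only.

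Levels per kilobase of gene model place the members on 1 scale. The mean level of H2az1 was 946 CPM per kb in C10 and 1198 in SVEC single cells, and that of H3f3b was 798 and 1790. H3f3a was at 151 and 354 CPM per kb, and H2aj at 59.9 and 15.4. Of the replication-dependent genes, H2ac23 was at 51.4 and 71.7 CPM per kb, and H2bc4 at 19.7 and 176. The SVEC mean of H2bc4 came from 22 of 48 libraries, and its highest level, 1562 CPM, was 8 counts in a library of 5122. H2ac18 was at 10.6 and 4.12 CPM per kb.

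H2bc4 differed most in level between the lines among the replication-dependent genes called. It was detected in 24 of 46 C10 libraries at up to 214 CPM (median 0.98) and in 22 of 48 SVEC libraries at up to 1562 CPM (median 0), with means of 22.7 and 203 CPM. The log2 fold change was -2.71 (SE 0.79, adjusted p = 0.00749 by edgeR's quasi-likelihood test) and limma gave an adjusted p of 0.134. H2bc4 was the most abundant gene of the class in 15 C10 and 21 SVEC libraries. H2bc24 was counted in 17 C10 and 18 SVEC libraries, at means of 0.58 and 2.29 CPM, with a log2 fold change of -1.52 (SE 0.53, adjusted p = 0.0283 by edgeR) that was called under 1 of 7 other settings.

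A pair of H2A genes, H2ac20 and H2ac19, was called higher in C10, though not under every setting. H2ac20 was counted in 15 of 46 C10 libraries at up to 20.7 CPM and in 3 of 48 SVEC libraries at up to 4.57 CPM, with a log2 fold change of 2.08 (SE 0.57, adjusted p = 0.00422 by edgeR's quasi-likelihood test). H2ac19 was counted in 24 and 11 libraries, with a log2 fold change of 1.78 (SE 0.65, adjusted p = 0.0411 by the same edgeR test). H2ac18, whose coding sequence is identical to that of H2ac19, was counted in 26 and 12 libraries and had a log2 fold change of 1.72 (SE 0.66, adjusted p = 0.0534), so the pair fell on both sides of the threshold at nearly equal sizes. The H2ac19 call remained under 5 of 9 other settings and was lost with library totals, DESeq2, no filter and the share of genes detected as a covariate. The H2ac20 call remained under 6 of the 7 other settings that tested it, and DESeq2 gave an adjusted p of 0.875. The H2ac20 call was also lost without C10 replicate 26, and the H2ac19 call without C10 replicate 7, 17, 24, 26 or 32. The H2bc24 call was lost without SVEC replicate 5, 28 or 35.

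The 10 genes formerly named Hist2 held a mean of 17.3% of the replication-dependent level in C10 single cells and 8.16% in SVEC, and the 53 genes formerly named Hist1 held 82.1% and 91.3%. H2ac23 and H2ac24, an identical pair of the Hist1 group, did not pass, with log2 fold changes of -0.18 (SE 0.72) and -0.02 (SE 0.73). H4c4 was counted in 23 C10 and 16 SVEC libraries (log2 fold change 0.96, SE 0.78). H1f2 was counted in 14 C10 and 15 SVEC libraries (log2 fold change -2.06, SE 0.81, edgeR adjusted p = 0.0609). Of the 12 H3 genes, 0 were detected often enough to be tested.

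**Figure D4:**
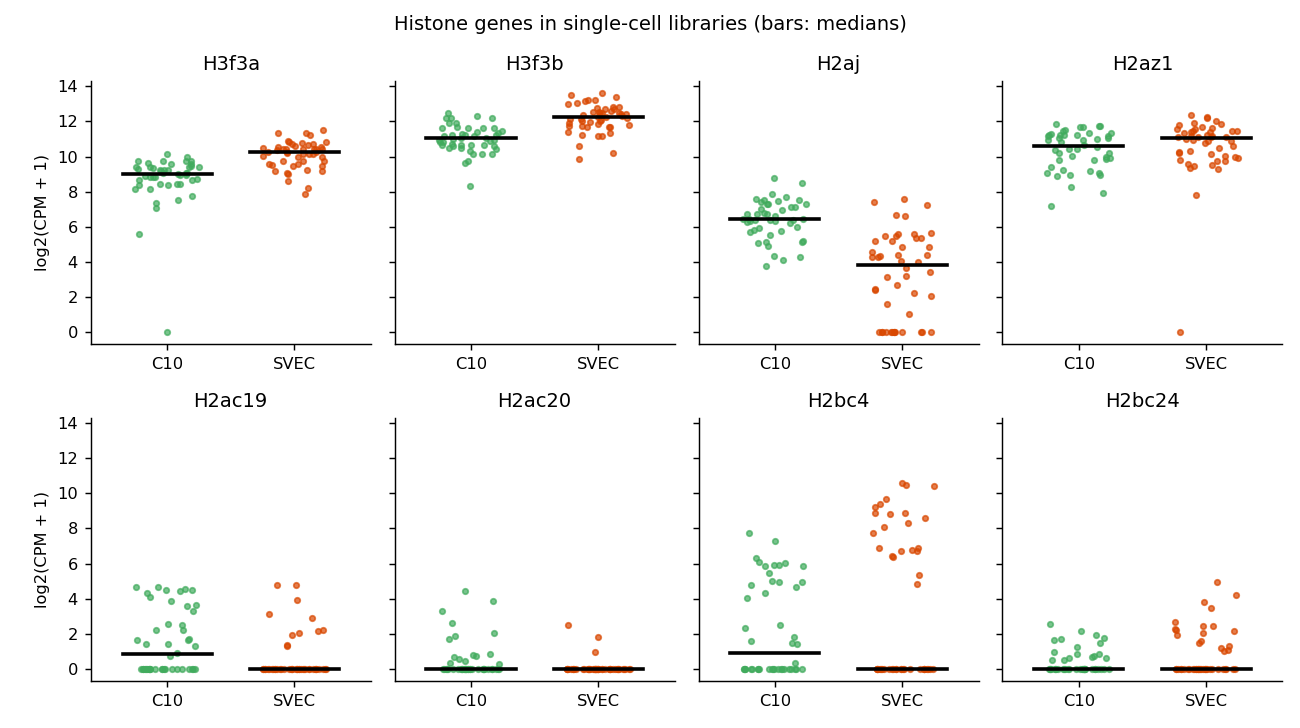
Level of 8 histone genes in each C10 and SVEC single-cell library, as log2(CPM + 1); each point is 1 library and each bar the median. H3f3b has medians of 2100 CPM in C10 and 4884 in SVEC, H2aj of 86.8 and 13.3, and H2bc4 ranges from 0 to 214 CPM in C10 and from 0 to 1562 in SVEC.

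Copies with identical coding sequence each took close to 50% of their pair's counts in the median library. H2ac18 took a median of 51.5% of the counts of its pair with H2ac19 over 32 libraries (33.3% to 62.1%), and H2ac23 took a median of 50.1% of its pair with H2ac24 over 46 libraries. H3c14 took a median of 49.3% of its pair with H3c15 over 7 libraries, with a wide range of 33.8% to 75.9%, and H4c17 took 49.0% of its pair with H4c18 over 18 (17.4% to 57.3%). In the 114 pairs that were at least 97.1% identical but not the same, the larger gene took a median of 96.1% of the counts. The way reads from near-identical copies were assigned is not given, so levels of single copies are uncertain and copies do not count as separate evidence.

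Across single cells of 1 line, several members moved with genes of the cell cycle. A score, the mean log2(CPM + 1), was taken over 43 S phase genes, which act in DNA synthesis, and over 52 G2/M genes, which act in mitosis. No member was in either list. The G2/M list did hold Cenpa, a histone H3 variant whose symbol the naming rule does not take, and the histone chaperones Hjurp and Anp32e. Over 46 C10 libraries Spearman's rho with the S phase score was 0.74 for H2ac23, 0.74 for H2ac24, 0.70 for H2ac11 and 0.63 for H4c4, and with the G2/M score 0.57, 0.54, 0.63 and 0.61. For H2bc4, H2ac18 and H2ac19 it was -0.20, -0.28 and -0.29. Of the variants, H2az1 had 0.61 with the S phase score and 0.87 with the G2/M score, H3f3b had 0.54 and 0.69, and H3f3a had 0.03 and 0.08. The summed replication-dependent level had 0.49 with the S phase and 0.50 with the G2/M score in C10, and -0.23 and 0.45 in SVEC. Over 48 SVEC libraries H2ac23 had 0.14 with the S phase and 0.66 with the G2/M score, and H2az1 had -0.06 and 0.42. The points of a relation share library and depth: in C10 the number of genes detected had a rho of 0.52 with H2ac23, 0.41 with H2az1 and -0.11 with H2bc4, and its part in these relations was not tested.

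**Figure D5:**
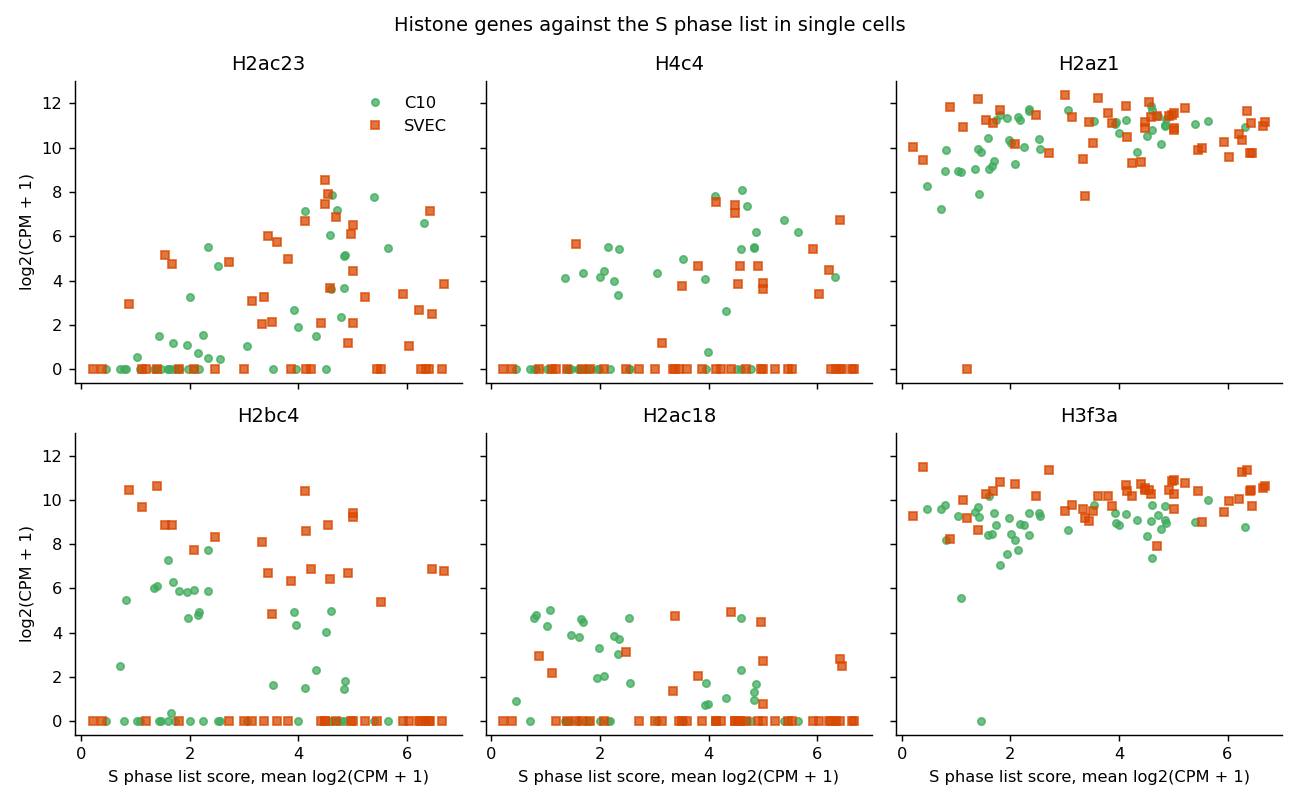
Level of 6 histone genes as log2(CPM + 1) against the S phase score of the same library, the mean log2(CPM + 1) of 43 genes, in C10 (circles) and SVEC (squares) single cells; each point is 1 library. In C10 the rho of H2ac23 is 0.74 and that of H2bc4 is -0.20.

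A list of 41 genes that process histone mRNA or carry histone proteins also held the H3 variant Cenpa. Of the 41 genes, 37 were tested between the lines. In C10, 1 was higher and 3 were lower, together a smaller share than the 18.9% of all genes called. By direction, 14.4% of all genes were higher and 4.48% lower, so the share of lower genes was not smaller. The median log2 fold change was -0.52 against 0.35 over all genes. Slbp, which binds the stem-loop, was at 0 to 717 CPM (median 79.9, detected in 30 of 46) in C10 and at 0 to 2878 CPM (median 748, 43 of 48) in SVEC. Its log2 fold change was -2.58 (SE 0.54, adjusted p = 9.5e-05 by edgeR's quasi-likelihood test), and the call remained under all 9 other settings. Slbp is itself in the S phase list, whose score had a median of 2.29 in C10 and 4.33 in SVEC single cells, and the part of that difference was not tested. Ipo4, an importer of H3 and H4, was counted in 5 of 46 C10 and 22 of 48 SVEC libraries (log2 fold change -4.82, SE 0.91). Rbbp4, a histone-binding subunit of CAF-1, had medians of 122 and 328 CPM (log2 fold change -1.17, SE 0.44, edgeR adjusted p = 0.0497), and its call was lost without any 1 of 73 of the 94 libraries and under 3 of 9 other settings. Npm1, a nucleolar histone chaperone, had medians of 1794 and 942 CPM (log2 fold change 1.08, SE 0.29), a call lost with the share of genes detected as a covariate. In the input series, 39 of the 41 were tested. With 10 cells 2 were higher than with 1 cell and 0 lower, where 10.6% of all genes were higher. With 3 cells 2 were higher and 0 lower, where 6.07% of all genes were higher, so both shares were smaller than over all genes. Their median log2 fold change was -0.24 with 10 cells, against 0.36 over all genes, and 0.05 with 3 cells, against 0.12. Sympk, a scaffold of the histone cleavage complex, was higher with 10 cells (5.77 ± 10.9 CPM, SD, n = 6) than with 1 (0.02 ± 0.04, n = 8), but the median of the pools was 0.10 CPM and 1 pool reached 27.3. Daxx, an H3.3 chaperone, was higher with 10 cells (17.9 ± 22.1 CPM) and with 3 cells (29.5 ± 32.6) than with 1 (0.06 ± 0.18). Hira, a further H3.3 chaperone, was higher with 3 cells (4.95 ± 9.09 CPM) than with 1 (0.05 ± 0.08), with a median of 0.19 CPM and 1 pool at 22.8. The edgeR adjusted p-values of these calls lay between 0.0304 and 0.0469. Sympk, Daxx and Hira were counted in 2, 1 and 3 of the 8 1-cell libraries. They passed the filter only through the pools and had to differ in this direction. Between 10 and 3 cells 0 passed.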

How the data were processed

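The authors deposited whole-number read counts per gene, 1 file per library, in the layout of htseq-count, for 116 libraries. FastQC, STAR and HTSeq are named in the submitters' processing notes without versions. The genome build, annotation and strand setting are not given in the sources used here. Molecular identifiers are not mentioned, and PCR copies may therefore count as separate reads. Reads of 150 bases came from SMART-Seq v4 Plus cDNA, per the labels' protocols. The 5 closing counters were left out of totals, and 2 C10 single-cell libraries under 1000 counts were left out.

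Levels are CPM over all gene counts. Tests used edgeR 4.0.16 (TMM, quasi-likelihood F test) in R 4.3.3 on genes counted in 25% or more of either line's libraries, or in 50% or more within an input group, with all 3 input groups in 1 model. limma 3.58.1 on log2(CPM + 1) and DESeq2 1.42.0 were alternatives, beside library totals alone, other filters, drawing down to 100000 counts, the share of genes detected as a covariate, a replicate block and leaving out each library. The scripts were tested on simulated data, where most of edgeR's calls in the single-cell design were false.

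Members and gene lists were chosen with earlier results of these data known. Named genes were members past the threshold in a comparison, or those counted in 50% or more of a group, at most 30 by mean CPM, with H2ax and the main variants added; genes outside that list, such as H1f3, H2ac13, H2ac20, H2bc24 and the smaller H3 and H4 genes, were named after their values were seen. H1f7 to H1f10 were classed as variants. The symbols of 76 members matched RefSeq GRCm38.p6, and 75 had a GENCODE vM21 model. Of the 78 members, 8 had no counts in any library: H1f1, H1f6, H1f7, H1f8, H1f9, H2ac1, H2ax and H2bc1.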

Additional observations from a re-analysis of the deposited data

Results flagged for a closer look

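Of 15 groups of values checked for a library far from the others, 3 held one. Chance gives about 1 in 20 for continuous values, which numbers of genes detected are not, and the groups share libraries. The 1-cell library of replicate 1 had 0 variant genes detected, while the other 1-cell libraries had 7 to 9. In the 1-cell library of replicate 2, replication-dependent genes made up 14.5% of histone counts, while the others had 5.99% to 7.74%. The 10-cell pool of replicate 5 had 8 variant genes detected, while the other 10-cell pools had 9. Where only 1 library differs in a whole number, the flag is automatic.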

How the results depend on the processing

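Counts of histone genes called stayed within 1.5 times except where given here. Without a filter on low counts, 26 members were called between C10 and SVEC, 2 for 10 cells and 1 for 3 cells against 1 cell; limma called 1 for 3 cells. The replicate block left 0 members and 0 genes in both comparisons with 1 cell, and called 7 members between the lines, 5 of them shared with the 7 without it and 5 higher in C10. Gene levels of same-numbered libraries did not deviate together: correlations in the input series ran from -0.03 to 0.09, with 0 of 6 over 0.1 in each comparison. The numbers were therefore not taken to pair libraries. Replicate 1, however, had the lowest total counts and the highest mitochondrial share in all 3 input groups (64.6%, 16.7% and 17.8%). Whether same-numbered libraries were handled together was not tested, so the result of the block stands beside the main one. Leaving out 1 library gave 11 to 19 calls for 10 cells, 1 to 15 for 3 cells, 0 for 10 against 3 cells and 5 to 9 between the lines. Drawing to 100000 counts moved the median of replication-dependent genes detected to 8.5, 16.5 and 24 for 1, 3 and 10 cells, and of variant genes to 8 for 10 cells and 7 for C10 single cells. Uncalled estimates changed sign between the lines for H1f0 (0.0545 with the replicate block) and H2az1 (-0.35 with library totals, -0.22 with limma, -0.44 with genes detected as covariate, -0.16 drawn down). The cause was not tested. Over all genes, calls between the lines were 1754 (1337 higher in C10), against 1590 (920 higher) with library totals and 3223 (2895 higher) with limma. They were 5437 (3322 higher) without the filter and 3199 (2918 higher) with the block. For 10 cells they were 1456, against 48 without the filter and 0 with the block. For 3 cells they were 866, against 121 with limma, 65 without the filter and 0 with the block. Without 1-cell replicate 1 the median sums were 359 CPM for replication-dependent genes and 5264 CPM for variants. Depth limits detection: 3 counts were worth a median of 0.30 CPM in 1-cell libraries, 1.6 CPM in C10 and 6.95 CPM in SVEC single cells.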

Other observations

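Some members were counted in the input series and hardly in the single-cell set. H4c14 was counted in 9 of 20 input libraries, all of them pools of 3 or 10 cells, and in 0 of 94 single-cell libraries. H2ac12 was counted in 12 input and 3 single-cell libraries, and H3c7, H3c6 and H4c3 in 8 input libraries each and in 2, 3 and 3 single-cell libraries. In reverse, H1f10 was counted in 0 input libraries and in 4 single-cell libraries, with 11 counts in all. H2bc21 was counted in a single library, 1-cell replicate 10, at 62.4 CPM. These genes were chosen after their values were seen, and the sets differ in depth.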
